A study of Mus musculus with 47 samples.

Results

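The 10 genes described here encode transcription factors of the ETS family: Erg, Fli1, Ets1, Ets2, Etv6, Spi1, Elf1, Elf4, Gabpa and Elk3. They are 10 of 18193 genes with a probe set that names a single gene, and they were chosen by name, not by their values. For each gene the probe set with the highest mean over the 47 arrays stands for the gene, and all 10 were measured and passed the filter on dim genes.

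ETS proteins share a DNA-binding domain, the ETS domain, that recognises sites with the core GGAA. Most members activate transcription, while Etv6 and Elk3 mainly repress it, and many sites can be bound by more than 1 member, so that family members can replace or oppose each other on the same gene. In blood formation Erg and Fli1 act in stem cells and megakaryocytes, Spi1 (the protein PU.1) directs myeloid and B cell development, and Ets1 is abundant in lymphocytes. Human leukaemias carry fusions or high levels of several members, among them ERG, FLI1 and ETV6.

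RNA came from leukaemic spleens of 47 mice, 1 array per mouse, and no array of a healthy spleen was used here. All mice carried the Cre transgene Tg(ACTB-cre)2Mrt, which is driven by the beta-actin promoter and so acts in nearly all tissues, and the allele Gt(ROSA)26Sortm2(sb11)Njen, which makes the Sleeping Beauty transposase. The transposon, which can raise or truncate the transcripts of genes it lands in, came from TgTn(sb-T2/Onc2)6113Njen in 21 mice or from TgTn(sb-T2/Onc2)6070Njen in 26. The labels gave a transposon insertion in Erg for 26 tumours (9 of line 6113 and 17 of line 6070) and none for 21 (12 of line 6113 and 9 of line 6070). Every tumour was labelled an undifferentiated myeloid leukaemia of terminal stage, and every mouse carried all 3 components. The age label, which has no unit, ran from 49 through a median of 74 to 97 with an Erg insertion and from 32 through 54 to 89 without, and the sex label was female for 13 of 26 and 12 of 21.

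The deposited values are on a log2 scale and come from RMA, a method that scales all arrays to a common distribution. The 25th percentile of all values was 5.08, so a gene near 5 is close to the dim floor, where differences are compressed. Levels of different genes come from different probes and are not ranked against each other. The sex label matched the level of Xist, the RNA of the silenced X chromosome, on 23 of 47 arrays and did not match on 24, so the link from arrays to labels is uncertain. Relations among genes within an array do not use the labels and are given first. A cell mixture was visible in the lineage markers: the B cell precursor gene Vpreb1 exceeded 7 on 15 arrays, the T cell gene Cd3d on 9, both on 2 and neither on 25. In whole spleen, fewer cells of a type and less RNA per cell cannot be told apart.

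A single array, called below the array that stood apart, had the highest value of a measure of RNA quality. The mean difference between 3' and 5' control probes of the beta-actin and Gapdh genes, which grows as RNA degrades, was 2.96 log2 units on it, against a median of 1.31 over the 47 arrays and a next-highest value of 2.61. That array also held the highest Spi1 (6.30), the lowest Gabpa (6.60), the lowest Elf1 (7.00) and the highest S100a8 (11.99) of the series. Results that rest on it are given with and without it. The array with the next-highest value, 2.61, stayed in when it was left out.

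Ets1, Erg and Fli1 differed most between the tumours. Ets1, an activator of lymphocyte genes, ran from 6.11 through a median of 8.56 to 10.10, and exceeded 7 on 34 arrays. Erg ran from 5.08 through 6.59 to 8.28 and exceeded 7 on 17 arrays, and Fli1, its closest relative, ran from 5.45 through 6.80 to 8.54 and exceeded 7 on 18. Their standard deviations over the arrays were 1.28 for Ets1, 0.99 for Erg and 0.82 for Fli1, larger than those of 99.8%, 99.4% and 98.8% of tested genes. All 3 covered a wide range with no empty gap, as the plot of the 10 levels shows.

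Ets2, which lies near Erg on chromosome 16, stayed low on most arrays and was high on a few. Its lowest, median and highest levels were 5.62, 5.97 and 8.43, and 3 of 47 arrays exceeded 7. Elf1, which acts in lymphocytes and stem cells, was above 7 on 47 of 47 arrays, with its lowest value (7.00) on the array that stood apart, a median of 7.56 and a highest value of 8.26. Gabpa, the DNA-binding subunit of GABP, a factor of housekeeping and mitochondrial genes, lay between 6.60 and 7.63 around a median of 7.41. Elf1 and Gabpa were thus present in every tumour. Their standard deviations of 0.30 and 0.20 were below those of Ets1, Erg and Fli1, but larger than those of 86.4% and 72.2% of tested genes.

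The repressor Etv6, needed for adult blood stem cells, ran from 5.91 through 6.40 to 7.04. Elk3, a repressor that responds to growth factor signals, ran from 5.44 through 5.87 to 6.85, and 18 arrays exceeded 6. Spi1 was dim by its only probe set: the lowest, median and highest values were 5.16, 5.34 and 6.30, and 1 array, the array that stood apart, exceeded 6. Elf4 was at the floor everywhere, between 5.13 and 5.38, and only 26.4% of tested genes varied less, so its relations below carry little information.

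Other probe sets of the same genes mostly followed the ones used. The next-brightest probe set had a correlation with the one used of 0.99 for Ets1, 0.97 for Fli1, 0.95 for Ets2, 0.93 for Erg, 0.92 for Elk3 and 0.79 for Etv6. It was lower for Gabpa (0.64), Elf1 (0.61) and Elf4 (0.31), and both Elf4 probe sets stayed near the floor.

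**Figure D1:**
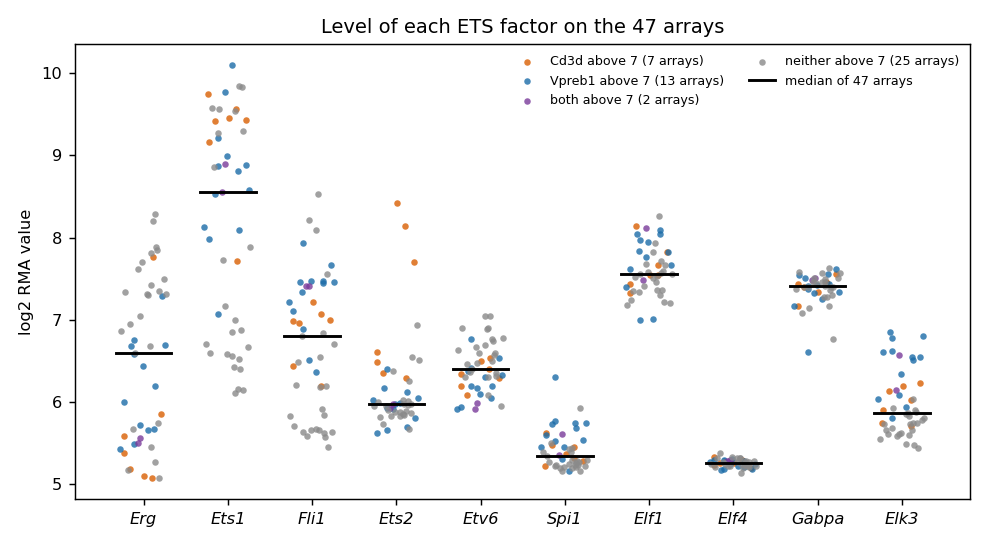
Level of each ETS factor on every array (y axis, log2 RMA value), coloured by whether Cd3d, Vpreb1, both or neither exceeded 7, with a black bar at the median of 47 arrays. Ets1, Erg and Fli1 spread over about 3 to 4 log2 units, Ets2 is high on 3 arrays with Cd3d above 7, and Elf4 stays near the floor.

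Erg and Ets1 opposed each other across the tumours. On the 5 arrays with the highest Erg (8.28, 8.21, 7.89, 7.84 and 7.81), Ets1 was 6.53, 6.16, 6.41, 6.87 and 7.00, all in the lower part of its range. On the array with the lowest Erg (5.08), Ets1 was 9.56. Erg exceeded 7 without Ets1 exceeding 8 on 16 arrays, Ets1 exceeded 8 without Erg exceeding 7 on 26, both did on 1 and neither on 4.

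Over the 47 arrays Pearson's r between Erg and Ets1 was -0.78 (95% interval -0.87 to -0.63) and Spearman's rho -0.78. The two-sided permutation p was 1e-05, the smallest that 100000 resamples can give, and 0.00045 after adjustment over 45 pairs. In limma, Ets1 was lower by 1.01 ± 0.12 (SE) log2 units per log2 unit of Erg (slope -1.01, adjusted p = 9.55e-08, the larger of the pair's fits). The relation was as strong without the array that stood apart (r = -0.81), and r was -0.75 once the 2 arrays with the most extreme Erg were left out. It was -0.85 on the 25 arrays with Vpreb1 and Cd3d both at or below 7. Among arrays with Vpreb1 above 7 it was not seen (r = 0.14, n = 15). Within the arrays whose tumour identifier ends in 9 it was -0.78 (n = 33) and within those ending in 7 it was -0.96 (n = 11), and 3 arrays ending in 8 were too few; what the number stands for is not stated. On either side of an Ets1 level of 8, a line drawn after seeing the values, r was weaker: -0.41 in the 27 arrays above it, where Erg had a median of 5.68, and -0.31 in the 20 arrays at or below it, where Erg had a median of 7.39.

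**Figure D2:**
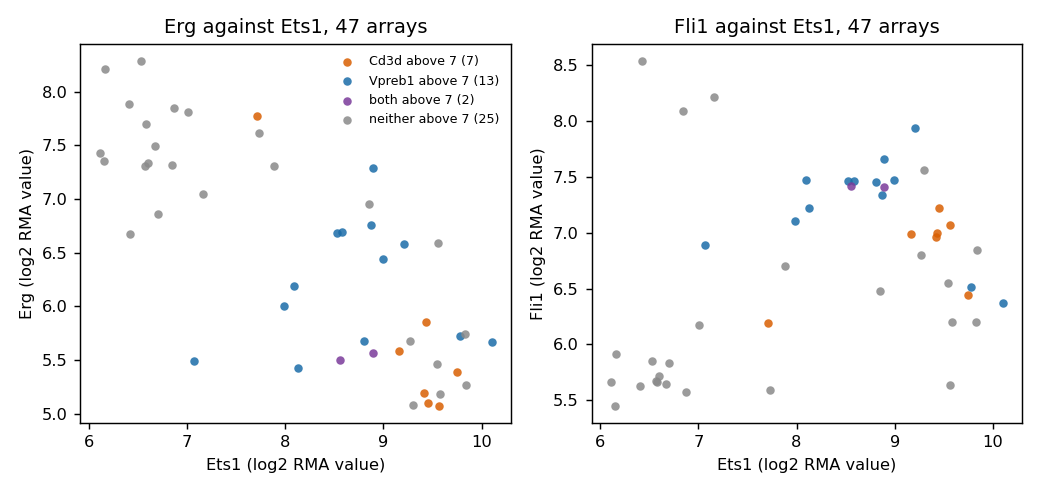
Erg (left) and Fli1 (right) against Ets1 on the 47 arrays (log2 RMA values), coloured by the lymphoid markers Cd3d and Vpreb1. Erg falls as Ets1 rises (r = -0.78), while Fli1 shows a cloud of arrays with low Ets1 and low Fli1 and 3 arrays with Fli1 above 8 and Ets1 between 6.42 and 7.16.

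Etv6 was higher where Erg was higher (r = 0.61, 95% interval 0.40 to 0.77, rho = 0.58, adjusted permutation p = 0.00045) and lower where Ets1 was higher (r = -0.44, rho = -0.37, adjusted permutation p = 0.0112). The array with the highest Etv6 (7.04) had the second place for Erg (8.21), the highest Elf1 (8.26) and an Ets1 of 6.16. Within identifier numbers, r of Erg with Etv6 was 0.71 for 9 (n = 33) and 0.33 for 7 (n = 11), and that of Ets1 with Etv6 was -0.56 and -0.23. Gabpa was also higher with Erg (r = 0.43, rho = 0.40, adjusted permutation p = 0.00844), and the array with the highest Erg also had the highest Gabpa (7.63). Without the array that stood apart r was 0.43, and the pair missed the limma threshold (slope 0.070, adjusted p = 0.0629).

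Fli1 and Erg, the most similar proteins of the family, opposed each other too. Their correlation was -0.43 (rho = -0.47, adjusted permutation p = 0.0121), and it was -0.30 within identifier number 9 and -0.91 within 7. On the 15 arrays with Vpreb1 above 7 it had the other sign (r = 0.55), and on the 25 arrays low in both lymphoid markers it was -0.39. The limma call was lost without the 2 arrays farthest from the median (slope -0.34, adjusted p = 0.0525). The highest Fli1 values (8.54, 8.21 and 8.09) fell on arrays with Erg of 6.68, 7.05 and 7.32 and with Ets1 of 6.42, 7.16 and 6.85. Fli1 lies near Ets1 on chromosome 9 in the RefSeq table, and the correlation of these neighbours was 0.34 (rho = 0.30), which missed the threshold after adjustment (0.0511). For the other neighbouring pair, Erg and Ets2 on chromosome 16, it was -0.25 (adjusted permutation p = 0.206).

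Elk3, Fli1 and Spi1 formed a group of positive relations. Fli1 with Elk3 had r = 0.62 (95% interval 0.41 to 0.77, rho = 0.66, adjusted permutation p = 0.00045). Fli1 with Spi1 had r = 0.53 (rho = 0.67), and Spi1 with Elk3 had r = 0.54 (rho = 0.61), which became 0.70 without the array that stood apart. On the 25 arrays low in both lymphoid markers r was 0.35, 0.44 and 0.15 for these pairs in the same order. Within the 15 arrays with Vpreb1 above 7 it was 0.71, 0.32 and 0.16, and within the 32 others 0.45, 0.47 and 0.25. Elk3 was also higher with Elf1 (r = 0.51) and with Ets1 (r = 0.45), and Elf1 was higher with Fli1 (r = 0.40). On the same 25, 15 and 32 arrays r was -0.04, 0.77 and 0.20 for Elf1 with Elk3. It was 0.48, 0.05 and 0.60 for Ets1 with Elk3, and 0.25, 0.66 and 0.26 for Elf1 with Fli1. Within identifier number 7 the correlations of Elf1 with Elk3 (-0.42) and with Fli1 (-0.35) had the other sign (n = 11). For identifier numbers 7 and 9, r was 0.64 and 0.55 for Fli1 with Elk3, 0.73 and 0.57 for Fli1 with Spi1, 0.28 and 0.80 for Spi1 with Elk3, and 0.74 and 0.39 for Ets1 with Elk3.

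Gabpa had further called relations with Spi1 (r = -0.46) and Elf1 (r = 0.41), and neither was called without the array that stood apart. Without it, r was -0.18 for Spi1 with Gabpa and 0.31 for Elf1 with Gabpa, with adjusted p of 0.612 and 0.277 in limma. The rank correlation of Spi1 with Gabpa over all arrays was -0.09, and r was -0.75 within identifier number 7 and 0.09 within 9. Gabpa's own relation to the 3' minus 5' difference was -0.63 over 47 arrays and -0.46 over the other 46, Elf1's was -0.43 and -0.33, and Spi1's was 0.36 and 0.083. On the 25 arrays low in both lymphoid markers it was 0.57 for Spi1 and -0.36 for Gabpa, and r of Spi1 with Gabpa was -0.59.

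In all, 13 of 45 pairs passed the limma threshold in both of their fits, 9 positive and 4 negative. By permutation, 15 pairs passed for r, 14 for rho and 13 for both, among them Erg with Spi1 (r = -0.37) and Etv6 with Elk3 (r = -0.36), which missed in limma. Signs were mixed over all pairs, with 20 positive and 25 negative correlations. The count fell to 10 without the array that stood apart, to 7 when the 2 arrays with the most extreme predictor were left out of each fit, and to 3 on the 25 arrays low in both lymphoid markers. The pairs lost without the 2 most extreme arrays were Erg with Fli1 and Gabpa, Ets1 with Etv6 and Elk3, and Gabpa with Spi1 and Elf1. The 3 on the 25 arrays were Erg with Ets1, Erg with Gabpa and Spi1 with Gabpa. With all 5 lineage markers in the model 6 pairs passed: Erg with Ets1, Etv6 and Gabpa, and Gabpa with Spi1, Elf1 and Elk3.

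**Figure D3:**
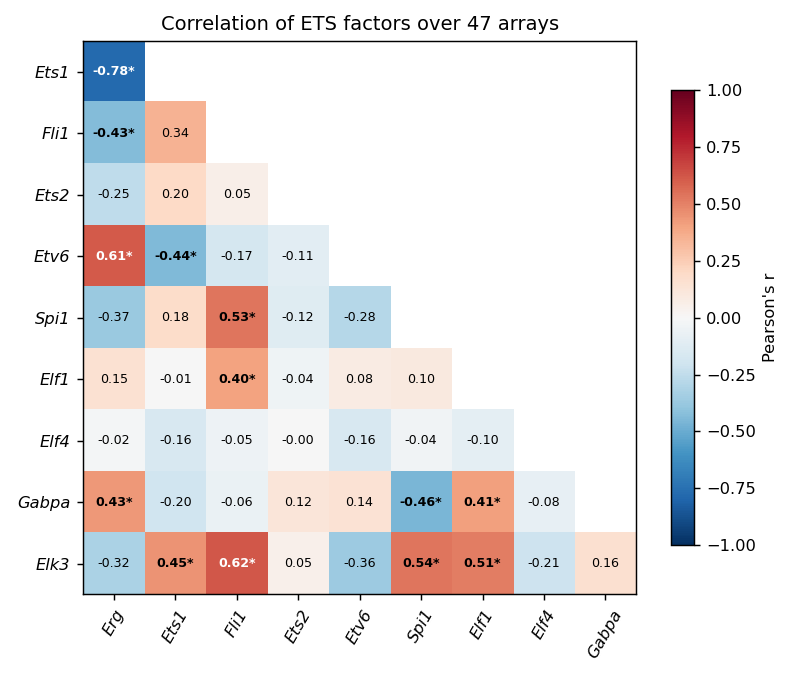
Pearson's r of each of the 45 pairs of ETS factors over 47 arrays (colour, from -1 to 1), with a star and bold type on the 13 pairs that passed the limma threshold in both fits. The darkest cell is Erg with Ets1 (-0.78), and the row of Elk3 holds 4 starred positive cells.

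Each factor's count in its own fit, which a pair must pass from both sides to be called, is read against the share of the 18177 other tested genes. With Erg, 2 of 9 other factors were higher and 2 lower, against 10.7% and 5.21% of genes, and with Ets1 1 was higher and 2 lower, against 5.12% and 8.60%. With Fli1, 3 were higher and 1 lower, against 10.8% and 16.0%. With Etv6, 1 was higher and 1 lower, against 8.79% and 3.44%, and with Spi1 2 and 2, against 12.1% and 19.7%. Elf1 had 3 higher and 0 lower, against 6.19% and 7.32%, Gabpa 2 and 1, against 7.37% and 4.89%, and Elk3 4 and 1, against 14.2% and 20.7%. Ets2 had 0 and 0, against 4.28% and 0.891%, and Elf4 had 0 and 0, where 0% of genes passed in either direction.

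The starts of the genes that moved with Erg are shown because ETS sites could lie there. RefSeq promoter windows of GRCm38.p6, each 300 bases long across a transcription start, were used. Any window on a chromosome that holds none of the 10 genes was left out. That gave 11 windows for 7 of the 10 genes, and none for Ets1, Fli1 and Spi1. Erg has 3 of them, at chr16:95459299-95459598, chr16:95530316-95530615 and chr16:95586544-95586843 on the minus strand. Those of Etv6 (chr6:134035450-134035749, plus strand) and Gabpa (chr16:84834874-84835173, plus strand) belong to the factors that were higher with Erg. That of Elk3 (chr10:93311110-93311409, minus strand) is of a factor with 4 called pairs. Capitals mark the core GGAA or its reverse TTCC.
Erg window 1: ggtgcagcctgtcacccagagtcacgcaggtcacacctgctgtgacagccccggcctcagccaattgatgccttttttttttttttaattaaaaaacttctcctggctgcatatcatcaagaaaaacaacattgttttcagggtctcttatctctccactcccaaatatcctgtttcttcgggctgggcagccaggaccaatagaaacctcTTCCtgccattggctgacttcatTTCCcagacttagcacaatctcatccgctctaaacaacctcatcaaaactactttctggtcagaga
Erg window 2: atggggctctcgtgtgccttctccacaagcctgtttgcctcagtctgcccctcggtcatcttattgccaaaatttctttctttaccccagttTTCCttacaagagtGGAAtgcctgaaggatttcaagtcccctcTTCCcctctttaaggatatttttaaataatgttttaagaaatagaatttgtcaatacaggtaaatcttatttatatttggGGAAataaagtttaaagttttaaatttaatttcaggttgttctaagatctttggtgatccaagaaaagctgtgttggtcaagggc
Erg window 3: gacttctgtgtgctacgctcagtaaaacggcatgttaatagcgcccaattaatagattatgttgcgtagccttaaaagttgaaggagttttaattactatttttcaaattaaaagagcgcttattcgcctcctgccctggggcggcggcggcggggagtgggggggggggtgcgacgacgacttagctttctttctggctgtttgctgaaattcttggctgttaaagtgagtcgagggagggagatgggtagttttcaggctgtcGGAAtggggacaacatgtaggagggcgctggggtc
Etv6 window: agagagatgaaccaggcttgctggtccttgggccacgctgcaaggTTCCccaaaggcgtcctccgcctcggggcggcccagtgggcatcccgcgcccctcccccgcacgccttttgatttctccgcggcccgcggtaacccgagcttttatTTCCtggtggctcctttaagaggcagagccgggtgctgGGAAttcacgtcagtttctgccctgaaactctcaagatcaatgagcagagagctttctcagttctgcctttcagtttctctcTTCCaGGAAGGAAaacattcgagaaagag
Gabpa window: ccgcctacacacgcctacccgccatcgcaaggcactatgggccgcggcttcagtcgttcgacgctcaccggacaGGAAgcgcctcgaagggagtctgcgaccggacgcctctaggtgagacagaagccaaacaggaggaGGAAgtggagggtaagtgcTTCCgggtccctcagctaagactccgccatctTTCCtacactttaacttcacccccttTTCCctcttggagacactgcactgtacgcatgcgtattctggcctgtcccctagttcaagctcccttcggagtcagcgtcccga
Elk3 window: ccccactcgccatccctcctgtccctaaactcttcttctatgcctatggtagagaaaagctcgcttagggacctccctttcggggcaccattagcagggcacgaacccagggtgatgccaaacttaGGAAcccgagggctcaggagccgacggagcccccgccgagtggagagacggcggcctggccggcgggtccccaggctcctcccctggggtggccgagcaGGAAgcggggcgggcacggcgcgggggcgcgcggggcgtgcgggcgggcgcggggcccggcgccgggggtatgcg
The core GGAA, on either strand, was found in 11 of 11 member windows, and in 96.0% of 32851 windows of this length, with a median of 3 matches. Etv6 held 6 matches and Gabpa 5, against 2, 4 and 1 in the Erg windows and 2 in that of Elk3. The most of the 11 windows, 8, lay in the second window of Elf4, a factor with no called pair. The other windows not printed held 2 in the first of Elf4, 2 and 1 in those of Elf1 and 1 in that of Ets2. The longer CGGAAG, on either strand and containing the core, was in 1 of 11, that of Gabpa, against 16.9% of all windows. AGATAA, the GATA factor motif, on either strand, was in 1, the first Erg window, against 11.2%. A match is a description of the letters only.

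Klf1, the factor of erythroid cells, was high in most tumours, with lowest, median and highest levels of 5.62, 9.14 and 9.99. Erg was higher where Klf1 was higher, by 0.35 ± 0.13 (SE) per log2 unit (adjusted p = 0.0333, r = 0.37, rho = 0.44). Fli1 (-0.45 ± 0.10, r = -0.57), Ets1 (-0.50 ± 0.17, r = -0.40), Spi1 (-0.13 ± 0.03, r = -0.59), Elf1 (-0.12 ± 0.04, r = -0.41) and Elk3 (-0.26 ± 0.04, r = -0.70) were lower. That is 1 higher and 5 lower of 10, where 18.9% of genes were higher and 14.8% lower, and Ets2 was just outside (adjusted p = 0.0504). The Erg call was lost with the next-brightest probe sets (adjusted p = 0.0546).

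Of 7 other measured erythroid genes, 5 were higher with Klf1 and 0 lower. Epor, the erythropoietin receptor, and Car1, a carbonic anhydrase of red cells, were higher with Klf1 (r = 0.89 and 0.79). Both were lower with Fli1 (r = -0.53 and -0.52), with Spi1 (-0.56 and -0.56) and with Elk3 (-0.69 and -0.67). Of 8 measured erythroid genes, Klf1 included, 0 were higher and 3 lower with Fli1, 0 and 3 with Spi1, and 0 and 5 with Elk3. Over all genes, 10.8% were higher and 16.0% lower with Fli1, 12.1% and 19.7% with Spi1, and 14.2% and 20.7% with Elk3. With Erg 1 was higher, Car1 (r = 0.39, not called without the array that stood apart), and 1 lower, Slc4a1 (r = -0.44), against 10.7% and 5.21%. With Slc4a1, the anion exchanger of red cells, in place of Klf1, Erg had a slope of -0.39 (adjusted p = 0.0303), and Ets1, Fli1, Spi1 and Elk3 had positive slopes that missed the threshold. Within identifier numbers 7 and 9, r with Klf1 was -0.73 and -0.49 for Fli1, -0.56 and -0.36 for Ets1, -0.70 and -0.60 for Spi1, -0.54 and -0.72 for Elk3, and 0.080 and -0.50 for Elf1. The correlation of Erg with Klf1 was 0.64 within identifier number 7 and 0.31 within 9, and -0.56 on the 15 arrays with Vpreb1 above 7.

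Pf4, the platelet factor of megakaryocytes, ran from 6.25 through 9.27 to 11.23. Only Ets2 passed against it, lower by 0.23 ± 0.06 per log2 unit (slope -0.23, adjusted p = 0.0241, r = -0.48, rho = -0.38, and -0.75 and -0.35 as r within identifier numbers 7 and 9), where 2.69% of genes were higher with Pf4 and 1.16% lower. It missed the threshold once the 2 arrays with the most extreme Pf4 were left out (adjusted p = 0.0717), by ranks (0.116) and with Itga2b in place of Pf4 (0.0948). Gabpa had a slope of -0.063 ± 0.022 (adjusted p = 0.0965), with rho = -0.56, and passed without the array that stood apart. The megakaryocyte regulators Erg and Fli1 had slopes of -0.037 ± 0.120 and 0.10 ± 0.10 with adjusted p of 0.922 and 0.671, so no relation of either to Pf4 was detected.

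S100a8, a calcium-binding protein of neutrophils, ran from 5.05 through 8.09 to 11.99. Erg was lower where S100a8 was higher, by 0.25 ± 0.06 per log2 unit (slope -0.25, adjusted p = 0.00222, r = -0.51, rho = -0.53), and the array with the highest Erg had the lowest S100a8. Fli1 was higher, by 0.24 ± 0.05 (r = 0.58, rho = 0.63), and of 18 arrays with Fli1 above 7, 16 had S100a8 above 7. Of the 29 arrays with Fli1 at or below 7, 14 did. Spi1 (0.070 ± 0.014, r = 0.59, rho = 0.63), Elk3 (0.086 ± 0.026, r = 0.44) and Ets1 (0.23 ± 0.09, adjusted p = 0.0496, r = 0.35) were also higher. Etv6 (-0.059 ± 0.021, r = -0.39) and Gabpa (-0.036 ± 0.014, r = -0.36) were lower, and Gabpa missed the threshold without the array that stood apart (adjusted p = 0.22). Ets1 missed it by ranks (adjusted p = 0.0626), with the next-brightest probe sets (0.137) and with the neutrophil gene Ngp in place of S100a8 (0.142), and Etv6 without the 2 most extreme arrays (0.0674) and with the next-brightest probe sets (0.0557). The count was 4 higher and 3 lower of 10, against 9.50% and 17.6% of genes. Within identifier numbers 7 and 9, r of S100a8 was -0.78 and -0.37 for Erg, 0.65 and 0.57 for Fli1, and 0.68 and 0.46 for Spi1. With Vpreb1 above 7 (n = 15) r was 0.19 for Erg, -0.26 for Fli1, 0.20 for Spi1, -0.33 for Elk3 and -0.34 for Ets1. Within the 32 others it was -0.56, 0.56, 0.62, 0.31 and 0.36 in that order. Within the 9 arrays with Cd3d above 7 it was -0.04, -0.16, 0.19, -0.60 and -0.006. Within the 38 others it was -0.56, 0.61, 0.62, 0.50 and 0.35.

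Vpreb1, part of the pre-B cell receptor, was at or below 7 on 32 arrays and above 7 on 15, with lowest, median and highest values of 5.18, 5.47 and 11.06. It exceeded 6 on 16 arrays, and the values on either side of 7 were 6.71 and 7.28. Elk3 was higher with it, by 0.14 ± 0.02 per log2 unit, and the 10 arrays with the highest Elk3, all at 6.34 or more, all had Vpreb1 of 8.67 or more. Fli1 (0.18 ± 0.05) and Spi1 (0.065 ± 0.013) were higher too, and Etv6 (-0.058 ± 0.019) was lower. That is 3 higher and 1 lower of 10, where 10.9% of genes were higher and 17.5% lower. Because most arrays lay at the low or the high end of Vpreb1, no pooled correlation is given. Within the 15 arrays above 7, r was 0.49 for Elk3, 0.60 for Fli1 and 0.39 for Spi1. Within the 32 others it was -0.45, -0.31 and -0.003 for Elk3, Fli1 and Spi1. The sign for Elk3 and Fli1 thus differed between these sets of arrays, but Vpreb1 was low in most of the 32 and the difference was not tested. By ranks, Elk3 (adjusted p = 0.0584), Fli1 (0.26) and Etv6 (0.27) missed the threshold. Erg had r = 0.64 within the 15 arrays and 0.21 within the 32, and its slope over all arrays missed the threshold (-0.079 ± 0.066, adjusted p = 0.426).

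Cd3d, a chain of the T cell receptor complex, was at or below 7 on 38 arrays and above it on 9, with a highest value of 10.23. Ets2 was higher with it by 0.32 ± 0.04 per log2 unit: the 3 highest Ets2 values, 8.43, 8.14 and 7.71, fell on arrays with Cd3d of 10.23, 10.02 and 10.09, while the next, 6.94, had Cd3d of 5.32. Ets1 was also higher (0.40 ± 0.12, adjusted p = 0.0208, and 0.0857 without the 2 arrays of most extreme Cd3d) and Erg lower (-0.35 ± 0.09, adjusted p = 0.00480). With Cd3g, another chain of the complex, in place of Cd3d, Ets1 (adjusted p = 0.177) and Erg (0.0688) missed the threshold. These 2 higher and 1 lower of 10 stand against 6.91% and 5.01% of genes. Within the 9 arrays above 7, r was 0.88 for Ets2, 0.68 for Ets1 and -0.51 for Erg, and within the 38 others it was 0.17, 0.38 and -0.40. Ets1 exceeded 8 on 8 of the 9 arrays with Cd3d above 7, and Erg exceeded 7 on 1 of them.

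**Figure D4:**
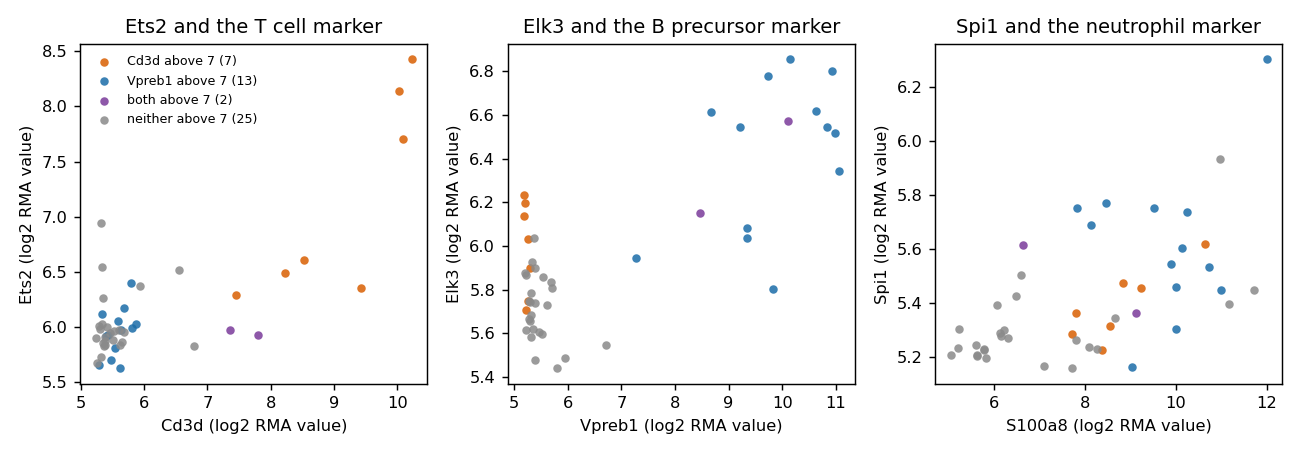
Ets2 against the T cell gene Cd3d, Elk3 against the B precursor gene Vpreb1 and Spi1 against the neutrophil gene S100a8 on the 47 arrays (log2 RMA values, coloured by the lymphoid markers). The 3 highest Ets2 arrays have Cd3d above 10, the 10 highest Elk3 arrays have Vpreb1 of 8.67 or more, and the highest Spi1 point (6.30) is the array that stood apart in RNA quality.

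Most marker relations were not called within the 25 arrays low in both lymphoid genes, where fewer arrays entered: 2 factors passed against Klf1, Gabpa as higher (slope 0.29 ± 0.06, r = 0.68, adjusted p = 0.00433) and Spi1 as lower (-0.25 ± 0.06, adjusted p = 0.00467), and 0 against each of the other 4 markers. On these 25 arrays the RNA 3' minus 5' difference had r = 0.57 with Spi1 and -0.36 with Gabpa. Its part in the calls of Gabpa and Spi1 was not tested. Several slopes that missed the threshold on the 25 arrays were as large as over all 47 arrays or larger. On Klf1 they were 1.06 ± 0.41 for Erg, -1.06 ± 0.61 for Ets1 and -0.92 ± 0.38 for Fli1, and on S100a8 they were -0.27 ± 0.09 for Erg and 0.26 ± 0.08 for Fli1. Those of Elf1 (-0.019) and Elk3 (-0.079) on Klf1, and of Elk3 (0.017) and Etv6 (-0.018) on S100a8, were smaller.

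Mean levels of longer marker lists were also set against the factors, as a description without a test. For the 2 lymphoid lists r is given on the 25 arrays low in both lymphoid markers only. Those arrays were picked for low Cd3d and Vpreb1, which belong to these lists, so the arrays highest in either marker are left out. A small r there cannot show that a relation is absent over all arrays. For 8 measured T cell genes r was 0.008 for Ets2, 0.58 for Ets1 and -0.58 for Erg. For 9 B cell precursor genes r was -0.10 for Elk3, 0.18 for Spi1 and -0.12 for Fli1. For 8 monocyte and macrophage genes r over all arrays was 0.66 for Elk3, 0.54 for Spi1 and 0.51 for Fli1, and on the 25 arrays 0.22, -0.10 and 0.18. For 8 neutrophil genes it was 0.60 for Spi1, 0.45 for Fli1 and -0.43 for Erg over all arrays, and 0.60, 0.46 and -0.51 on the 25. Erg is also an endothelial gene, and for 14 endothelial genes r was 0.50 for Erg, 0.37 for Etv6 and -0.37 for Ets1 over all arrays, and 0.35, 0.30 and -0.25 on the 25. Those genes were dim: 11 of 14 never exceeded 7, the endothelial cadherin Cdh5 lay between 5.24 and 6.01 and Emcn never exceeded 5.17, while Plvap exceeded 7 on 38 arrays. The part of endothelial cells in the level of Erg was not tested.

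Target and partner genes of these factors were read from lists chosen with earlier results known. Of 13 myeloid genes regulated by PU.1, 11 were higher with Spi1 and 0 lower, against 12.1% and 19.7% of all genes, with a median slope of 0.64 against -0.0059 over all genes. The largest correlations were with Ncf1, a subunit of the phagocyte oxidase (slope 2.43 ± 0.21, r = 0.86), Csf2ra, the GM-CSF receptor (0.41 ± 0.05, r = 0.78), and Ncf4 (1.53 ± 0.24, r = 0.68). The count of 11 was also reached without the array that stood apart. With Fli1 10 of the 13 were higher and 0 lower, against 10.8% and 16.0% of all genes, and with Elk3 9 were higher and 1 lower, against 14.2% and 20.7%. With Erg 0 were higher and 6 lower, against 10.7% and 5.21%, among them Ncf1 (-0.32 ± 0.09) and the lysozyme gene Lyz2 (-0.52 ± 0.15). The pattern was not particular to Spi1 or to ETS factors. With S100a8 11 were higher and 1 lower, against 9.50% and 17.6%, and with Vpreb1 10 and 1, against 10.9% and 17.5%. With Klf1 1 was higher and 9 lower, against 18.9% and 14.8%. With Cd3d the counts were 1 and 0, against 6.91% and 5.01%, and with Pf4 0 and 0, against 2.69% and 1.16%.

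Of 5 stem cell factors that bind with ERG and FLI1, 2 were higher with Erg, against 10.7% of all genes: Gata2 (0.68 ± 0.12, r = 0.66) and Lmo2 (0.50 ± 0.13, r = 0.50). The same genes were lower with Ets1 (Gata2 -0.58 ± 0.08, r = -0.72, and Lmo2 -0.33 ± 0.10, r = -0.43), with 0 of the 5 higher, against 5.12% of all genes higher and 8.60% lower. With Fli1, 3 of 5 were lower and 0 higher, against 16.0% and 10.8%: Lmo2 (-0.68 ± 0.14), Gata2 (-0.68 ± 0.15) and Tal1 (-0.37 ± 0.13). Such relations were not particular to Erg, Ets1 and Fli1. With Klf1 4 of the 5 were higher and 1 lower, against 18.9% and 14.8% of all genes, with r = 0.87 for Lmo2 and 0.82 for Tal1. With Etv6 2 were higher and 0 lower, against 8.79% and 3.44%. With Elk3 0 were higher and 3 lower, against 14.2% and 20.7%. Of 10 megakaryocyte genes with known ETS sites, 5 were higher and 0 lower with Fli1, against 10.8% and 16.0% of all genes, among them the platelet chemokine Ppbp (1.34 ± 0.22, r = 0.67) and the receptor subunits Gp9 (0.43 ± 0.08) and Gp1bb (0.64 ± 0.14), with a median slope of 0.32 against -0.0057 over all genes. With Erg, 1 was higher, Treml1 (0.26 ± 0.05, r = 0.59), and 1 lower, Ppbp (-0.76 ± 0.22), near the 10.7% and 5.21% of all genes. The pattern was not particular to Fli1. With Spi1 4 were higher and 0 lower, against 12.1% and 19.7%, and with Elk3 4 and 1, against 14.2% and 20.7%. With S100a8 3 were higher and 0 lower, against 9.50% and 17.6%, and with Vpreb1 3 and 0, against 10.9% and 17.5%. Ppbp had r = 0.73 with S100a8. With Klf1 0 were higher and 3 lower, against 18.9% and 14.8%.

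Of 14 other measured ETS genes, 5 were higher with Elk3 and 2 lower (1 lower without the array that stood apart), against 14.2% and 20.7% of all genes, so the share lower was no larger than the background. The largest relation was with Spib, a close relative of Spi1 in B cells (1.46 ± 0.17), which was also higher with Vpreb1 (0.28 ± 0.03). The repressor Etv3 was higher with Cd3d (0.15 ± 0.03), with Ets1 (0.13 ± 0.03, r = 0.53) and with Ets2 (0.27 ± 0.07), and lower with Erg (-0.15 ± 0.04, r = -0.45) and with Klf1 (-0.25 ± 0.03, r = -0.78).

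Genes most like each factor over the 47 arrays were taken by Pearson's r, as a description. For Erg they were Gnb4 (0.84), Mapk14 (0.84), Kctd10 (0.82), Dnaaf5 (0.80) and Slamf1 (0.80), and Gpsm3 (-0.83) and Arhgap9 (-0.80) were most opposed. For Ets1 they were Casp8 (0.84), Gpsm3 (0.83), Lcp2 (0.81), Mndal (0.80) and Anp32a (0.80), with Mapk14 (-0.83) and Emp3 (-0.82) most opposed, so that Gpsm3 and Mapk14 stood at opposite ends for Erg and Ets1. Ets2 was most like Lrig1 (0.90), Fam169b (0.90), Ptprf (0.89), the T cell gene Themis (0.89) and Notch3 (0.89), while its rank correlations with them were 0.47 to 0.60. Elk3 was most like Dyrk2 (0.93), Pfkfb3 (0.93), Plekho1 (0.92), Atp1b3 (0.92) and Dhx40 (0.92).

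For Fli1 the closest genes were Nrros (0.75), Actr3 (0.74), Capg (0.74), Galnt7 (0.73) and Pmaip1 (0.73). Spi1 was closest to Itpripl2 (0.90), Irak3 (0.89), Fes (0.88), Hip1r (0.88) and Vasp (0.86). Etv6 was closest to Sec31a and Rab38 (0.78 each) and most opposed to A930006K02Rik (-0.73) and Slc4a1 (-0.70). Elf1 was closest to Zbtb24 (0.78) and Tbk1 (0.78), and Gabpa to Cstf2 (0.83) and Ranbp1 (0.80). No gene exceeded 0.62 with Elf4 (Rflna, 0.62).

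The labelled comparison of tumours with and without an Erg insertion stands under the mismatch of labels and arrays described above. In arrays labelled with an insertion, Erg had a lowest, median and highest level of 5.08, 7.00 and 8.28, and in those labelled without 5.10, 6.01 and 7.62. Erg exceeded 7 on 13 of 26 arrays with the label and on 4 of 21 without it, and the ranges overlapped widely. Mean levels were 6.73 ± 1.08 with and 6.19 ± 0.79 without the insertion label (SD, n = 26 and 21). With line and sex labels as covariates the difference was 0.56 ± 0.29 (SE, limma, unadjusted p = 0.0583, adjusted p = 0.999). It was larger in size than that of 99.9% of tested genes, and the threshold was not met. That rank is of raw differences, and the standard deviation of Erg over the arrays was larger than that of 99.4% of tested genes. The difference of Ets1, with an unadjusted p of 0.108 in limma, ranked at 100% on the same measure. The age label, with medians of 74 with and 54 without the insertion label, was not in the Erg model. Its part in the Erg difference was not tested. Sex matched Xist on 23 arrays and not on 24, a split that labels unrelated to the arrays could also give. A match therefore does not show that the Erg label of an array is right, and the matching arrays cannot decide whether Erg differed. On the 23 arrays whose sex label matched Xist the difference was not seen: Erg averaged 6.32 ± 1.06 with and 6.42 ± 0.78 without the label (SD, n = 10 and 13), and with the covariates it differed by -0.058 ± 0.379 (SE, limma, unadjusted p = 0.88, adjusted p = 1.00).

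Ets1 ran the other way, at 7.90 ± 1.35 with and 8.55 ± 1.12 without the insertion label (SD), a difference of -0.62 ± 0.38 (SE, limma, unadjusted p = 0.108, adjusted p = 0.999). On the 23 matching arrays Ets1 averaged 8.39 ± 1.26 with and 8.38 ± 1.24 without (SD), and differed by 0.032 ± 0.532 (SE, limma, unadjusted p = 0.952). The opposite course was not seen there, under the same limit on what a match shows. Fli1 averaged 6.67 ± 0.92 with and 6.75 ± 0.71 without (SD), a difference of -0.072 with no covariates that turned to 0.026 ± 0.245 (SE) with line and sex in the model. The other 7 factors differed by 0.11 or less. For the Erg label 0 of 10 factors and 0% of all genes passed in limma, and 0 factors and 666 genes had an unadjusted p under 0.05.

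**Figure D5:**
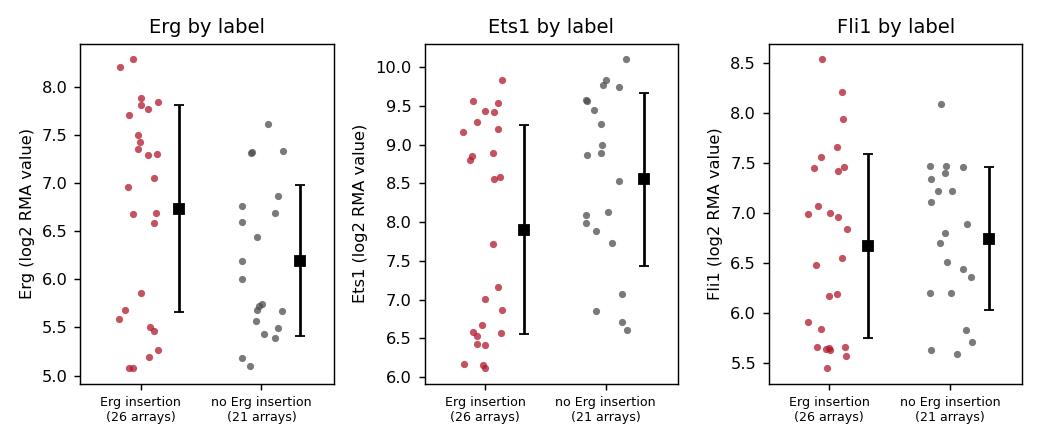
Erg, Ets1 and Fli1 (log2 RMA values) by the Erg insertion label, one point per array, with the mean and standard deviation as a black square and bar. The groups overlap in all 3 panels, and the means are 6.73 with and 6.19 without the label for Erg, and 7.90 with and 8.55 without for Ets1.

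The line and age labels gave no call either. Elf1 averaged 7.69 ± 0.24 in line 6113 and 7.52 ± 0.33 in line 6070 (SD), a difference of 0.19 ± 0.09 (SE, limma, unadjusted p = 0.0314, adjusted p = 0.999). It was the only factor with an unadjusted p under 0.05, beside 540 of all genes, and 0% of genes passed after adjustment. For age, 0 factors and 688 genes had an unadjusted p under 0.05, and 0% passed. Whether the Erg label acted differently in the lines was tested as an interaction: 0% of genes passed, Elf1 (-0.43 ± 0.17, unadjusted p = 0.0148, adjusted p = 0.681) was the only factor under 0.05 before adjustment, and 1286 genes were.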

How the data were processed

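The deposited log2 values were made by the authors with RMA in the affy package and R 2.15, per the submitters' processing notes. RMA corrects background, quantile normalizes the 47 arrays and summarises each probe set, so dim genes are compressed and depth has no meaning here; the number of arrays limits the precision. Scanner files were not used.

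Of 45101 probe sets, 34945 named 1 gene in the platform annotation, 932 named several and 34741 had a gene number in the RefSeq table of GRCm38.p6. Arrays correlated pairwise between 0.903 and 0.991. Genes above log2 5 on at least 9 arrays were tested (18178 genes, 15 removed). Each marker and each factor was used in turn as the predictor of all other genes in limma 3.58.1 (lmFit and eBayes, R 4.3.3), and p-values were adjusted across every tested gene (Benjamini-Hochberg, threshold 0.05). A slope is in log2 units per log2 unit. Pearson's r and Spearman's rho have two-sided permutation p-values (100000 resamples, Python 3.11.15, numpy 2.4.6), adjusted over 50 marker relations or 45 pairs. Label comparisons had the line, sex and Erg insertion labels, apart from the one tested, as covariates, and not age; the fit was checked on simulated data. Each array is a separate mouse.

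The members, lists and tests were chosen with earlier results of these data known. The genes named are the 10 members and 5 markers, the 5 most and 2 least correlated genes of each, and up to 4 genes of a list past the threshold. Alternatives were a second marker gene, the next-brightest probe set, ranks, no filter, the identifier number or RNA 3' minus 5' difference in the model, and left-out arrays. Leaving out the array of the highest 3' minus 5' difference was added after seeing the data.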

Additional observations from a re-analysis of the deposited data

How the results depend on the processing

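No paired analysis was possible because replicate numbers only name arrays in accession order. Against Klf1, 6 factors passed; 2 passed on the 25 arrays low in both lymphoid markers and 2 with Slc4a1 in its place. Against Pf4, 1 passed; 0 passed without the 2 farthest arrays, 0 on the 25 arrays, 2 with the identifier number in the model and 2 without the array of the highest 3' minus 5' difference, an alternative chosen after seeing the data. Against S100a8, 7 passed, 5 without the 2 farthest arrays, 5 by ranks and 0 on the 25 arrays. Against Vpreb1, 4 passed, 0 on the 25 arrays and 1 by ranks. Against Cd3d, 3 passed, 0 on the 25 arrays and 1 with Cd3g in its place. Of pairs, 13 passed, 7 without the 2 farthest arrays, 3 on the 25 arrays and 6 with the 5 markers as covariates. The 25 arrays are fewer and span little of Vpreb1 and Cd3d; for the other settings the cause was not tested. The label comparisons gave 0 factors under each alternative run.

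Slopes changed sign with Slc4a1 for Erg (-0.39), Ets1 (0.36), Fli1 (0.080), Spi1 (0.032) and Elk3 (0.055). On the 25 arrays the slope on Vpreb1 was -0.69 for Fli1, 0.028 for Etv6 and -0.18 for Elk3, and that of Elf1 with Elk3 was -0.024. Spi1 with Gabpa turned to 0.063 without the 2 farthest arrays, Elf1 with Gabpa to -0.30 by the next-brightest probe sets and Spi1 with Elk3 to -0.18 with the 5 markers in the model. Without the filter, 34 of 34 called relations kept their direction and call.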
